A study of Mus musculus with 24 samples.

Results

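The 9 genes described here are microglia genes: Cx3cr1, Csf1r, P2ry12, Tmem119, Aif1, C1qa, C1qb, C1qc and Trem2. They were chosen by name, as the rows of the expression table whose single gene symbol in the array's annotation is one of these, with the row of the highest mean standing for a gene. Each of the 9 had 1 probe set, out of 19938 genes on the arrays. The arrays measured mRNA in punches of the ventral tegmental area (VTA), a midbrain region that holds dopamine neurons of the reward system, over the 24-h day. All 24 mice were male wild-type C57BL/6N animals 10 to 12 weeks old, kept in a cycle of 12 h of light and 12 h of darkness with standard chow and water freely available, and without any treatment. Groups differed in the time of sampling alone, with 4 mice and 1 array per mouse at each of ZT0, ZT4, ZT8, ZT12, ZT16 and ZT20, where zeitgeber time ZT0 is lights on and ZT12 is lights off. The labels place the groups at a 4-h interval, and the labels were followed here although the study's methods give a longer one.

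Microglia are the resident macrophages of the brain. They arise outside the neural lineage, survive through signalling by the CSF1 receptor, survey the tissue with moving processes, and take up debris, dying cells and synapses. A punch holds neurons, astrocytes, oligodendrocytes, vessels and microglia together, so for every value in this text fewer microglia and less RNA per microglial cell cannot be told apart. Cx3cr1, Csf1r, P2ry12 and Trem2 encode surface receptors, Tmem119 a surface protein used to tell microglia from other macrophages, Aif1 the calcium-binding protein IBA1 used to stain microglia, and C1qa, C1qb and C1qc the chains of C1q, which starts the classical complement pathway and tags synapses for removal.

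RefSeq promoters of the GRCm38.p6 build were searched on both strands for the motif of the myeloid factor PU.1 and for motifs of the circadian clock, because the question put to these genes is whether they follow the time of day. Promoters of 6 of the 9 genes were searched. The table used held none for C1qa and Tmem119, and Csf1r was left out of the search. C1qc is shown because its upstream bases held matches to a pair of the motifs, P2ry12 because it held the E-box bound by clock activators, and C1qb because it is the neighbour of C1qc. C1qb, C1qc and C1qa lie next to each other on chromosome 4, with no other gene between them. The sequences run 5′ to 3′ on the strand of the gene, end before the annotated gene, and have matches in capitals.
P2ry12 (chr3:59262986-59263235, - strand, 250 bases): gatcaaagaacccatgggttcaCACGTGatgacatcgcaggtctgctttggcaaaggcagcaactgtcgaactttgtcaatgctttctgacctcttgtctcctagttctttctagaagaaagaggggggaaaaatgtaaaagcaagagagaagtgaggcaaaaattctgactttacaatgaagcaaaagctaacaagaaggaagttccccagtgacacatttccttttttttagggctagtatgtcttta
C1qb (chr4:136886201-136886450, - strand, 250 bases): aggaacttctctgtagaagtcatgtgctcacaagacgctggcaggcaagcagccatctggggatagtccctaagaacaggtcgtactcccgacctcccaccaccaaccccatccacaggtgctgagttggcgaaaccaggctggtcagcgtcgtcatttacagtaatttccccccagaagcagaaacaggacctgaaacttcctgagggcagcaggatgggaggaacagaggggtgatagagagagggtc
C1qc (chr4:136892937-136893164, - strand, 228 bases): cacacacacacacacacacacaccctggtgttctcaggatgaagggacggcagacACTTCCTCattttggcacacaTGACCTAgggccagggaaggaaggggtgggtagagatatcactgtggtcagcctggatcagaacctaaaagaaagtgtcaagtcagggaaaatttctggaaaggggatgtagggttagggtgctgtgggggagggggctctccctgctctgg
In C1qc the first run of capitals is the PU.1 motif GAGGAAGT on the opposite strand, beginning 195 bases before the start site, of which the last 22 lie in the annotated gene and are left out here, and the second is the ROR element TAGGTCA, also on the opposite strand, 174 bases before it. The P2ry12 capitals are the E-box CACGTG, 228 bases before the start. Among all 32851 promoters with 250 upstream bases, 2.44% held GAGGAAGT, 6.02% CACGTG and 2.23% TAGGTCA. The D-box forms TTATGCAA and TTACGTAA, in 0.694% and 0.113% of promoters, were in none of the 6 microglia gene windows. Cx3cr1, Aif1 and Trem2 had no match to any of these motifs in their windows. A match describes letters only, and none of these sites was measured.

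The expression values are log2 signals after RMA (robust multi-array average), so a difference of 1 is a change by a factor of 2. Arrays have no background measured in these files. As a guide, 1035 olfactory receptor genes, which most brain cells do not express, had a median level of 5.47 and a 95th percentile of 7.06. Mean levels of Cx3cr1, Csf1r, C1qb, C1qc and Trem2 were above that percentile, and for Trem2 alone every array was. Tmem119, C1qa, P2ry12 and Aif1 had means below it and above the median of the olfactory receptors, with Aif1 nearest to it at 5.94. Of the genes that mark other cells of this tissue, all 10 pan-neuronal genes, 8 of 10 dopamine neuron genes and 9 of 10 astrocyte genes had means above the percentile. So had 9 of 9 oligodendrocyte genes measured, 5 of 7 oligodendrocyte precursor genes and 4 of 9 endothelial genes. Of the other microglia genes 11 of 23 had. Array medians over transcripts ranged from 6.71 to 6.79. ZT0 replicate 4 stood apart, with a median correlation of 0.970 to the other arrays where the rest had 0.988 to 0.993, and with 327 transcripts more than 1 log2 unit below the other arrays of ZT0. Where differences, counts and correlations of pairs named below for the microglia genes moved by more than a factor of 1.5 without this array, both values are given. Pairs that are not named were left out of this rule.

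No microglia gene passed the test for a 24-h rhythm in the VTA. A 24-h cosine curve fitted with limma called 0 of the 9 genes at an adjusted p under 0.05, where 0.0299% of 23410 transcripts were called, and 0 of the 9 had an unadjusted p under 0.05, where 8.91% of transcripts did. The median range from trough to peak of the fitted curves was 0.11 on the log2 scale for the 9 genes and 0.10 over all transcripts. Differences between time point means held a median of 25.7% of the variance of the microglia genes and 19.8% of that of all transcripts, a share to which the spread between mice adds. The SD between mice of the same time point had a median of 0.11 for the 9 genes and 0.13 over all transcripts.

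**Figure D1:**
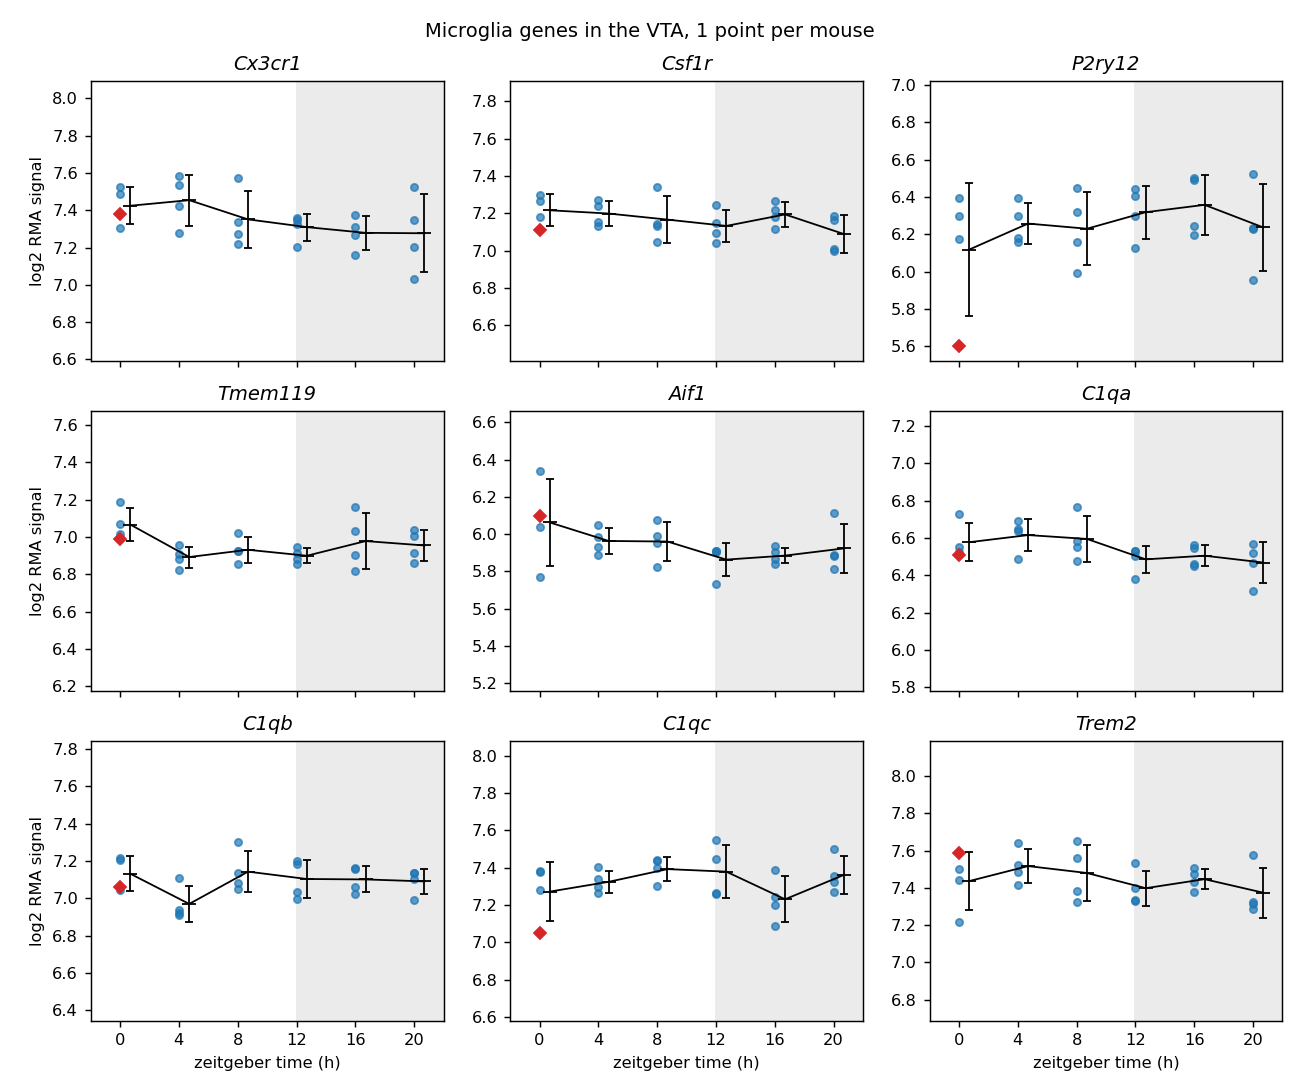
Expression of the 9 microglia genes over the day. The y axis is the log2 RMA signal, spanning the same 1.5 log2 units in each panel, the x axis is zeitgeber time in h, circles are single mice, the red diamond is ZT0 replicate 4, black bars are the mean ± SD of the 4 mice of a time point (drawn slightly to the right), and grey marks the dark phase. The circles of neighbouring time points overlap in most panels, and P2ry12 has its lowest value, 5.60, in ZT0 replicate 4. The ZT0 values of Tmem119 lie above those at ZT4 and ZT12, time points picked after the values were seen.

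Among the receptors, Cx3cr1, the receptor for the neuronal chemokine fractalkine, had the highest means early in the light phase. Its 4 mice gave 7.30, 7.49, 7.52 and 7.38 at ZT0, and 7.58, 7.54, 7.42 and 7.28 at ZT4. At ZT8 they gave 7.34, 7.22, 7.27 and 7.57, and at ZT12 7.35, 7.20, 7.36 and 7.33. In the later dark phase the values were 7.38, 7.26, 7.16 and 7.31 at ZT16, and 7.03, 7.35, 7.52 and 7.20 at ZT20. The means thus ran from 7.45 ± 0.14 (SD, n = 4) at ZT4 down to 7.28 ± 0.21 (SD, n = 4) at ZT20, and no neighbouring pair in that order was separated by more than the larger SD. Its fitted curve crested at ZT 3.51, with a standard error of 1.56 h, and the ratio of peak to trough was 1.13 (adjusted p = 0.587 in limma).

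Csf1r, the receptor for the growth factors CSF1 and IL-34 that microglia need to survive, was among the steadiest of the set. Its 24 values ran from 6.997 to 7.34 with a median of 7.16, and its time point means from 7.22 ± 0.08 (SD, n = 4) at ZT0 to 7.09 ± 0.10 (SD, n = 4) at ZT20. The fitted fold was 1.04 (adjusted p = 0.907 from limma).

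P2ry12 encodes the ADP receptor that guides microglial processes to injured cells, and it varied most between mice. At ZT0 the values were 6.18, 6.39, 6.30 and 5.60, with the low one in ZT0 replicate 4, and at ZT4 they were 6.16, 6.30, 6.395 and 6.18. At ZT8 they were 6.45, 6.32, 5.99 and 6.16, and at ZT12 6.44, 6.41, 6.30 and 6.13. At ZT16 they were 6.20, 6.50, 6.25 and 6.49, and at ZT20 6.23, 6.53, 5.96 and 6.23. The ranges of all 6 time points overlapped, and the SD within time points was 0.21. The highest mean was at ZT16 (6.36 ± 0.16, SD, n = 4) and the lowest at ZT0 (6.12 ± 0.35, SD, n = 4). The fitted range of 0.18 on the log2 scale (adjusted p = 0.764 from limma) became 0.08 without ZT0 replicate 4.

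Trem2, a receptor for lipids and apolipoproteins that signals through the adaptor DAP12, had its lowest mean, 7.37 ± 0.13 (SD, n = 4), in the ZT20 mice, and its highest, 7.52 ± 0.09 (SD, n = 4), in the ZT4 mice. Its 24 values lay between 7.22 and 7.65 with a median of 7.44, and the fitted fold was 1.07 (adjusted p = 0.801 from limma).

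Tmem119 was highest in the ZT0 mice, with a mean of 7.07 ± 0.09 (SD, n = 4), and lowest in the ZT4 mice, with 6.89 ± 0.06 (SD, n = 4). The 4 mice at ZT0 gave 7.01, 7.07, 7.19 and 6.99, and those at ZT4 gave 6.96, 6.82, 6.91 and 6.88, so these groups did not overlap. The ZT12 values, from 6.85 to 6.95, also lay below all those of ZT0. These time points were picked after the means were seen, and how often groups of other transcripts separate in this way was not counted. At ZT8, ZT16 and ZT20 the values ran from 6.82 to 7.16. Differences between time point means held 37.1% of its variance, the highest share of the 9 genes and one that 11.02% of all transcripts reached, and the fold of the fitted curve was 1.08 (adjusted p = 0.727 from limma).

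Aif1 was highest at ZT0, where 1 mouse gave 6.34 and the others 6.04, 5.77 and 6.10, and its mean there was 6.06 ± 0.23 (SD, n = 4). The lowest mean was that of ZT12, 5.86 ± 0.09 (SD, n = 4). The curve crested at ZT 1.63, with a standard error of 1.70 h, at a ratio of peak to trough of 1.12 (adjusted p = 0.633 in limma).

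The chains of C1q did not all have their highest mean at the same time point, nor their lowest. C1qa had its highest mean at ZT4 (6.62 ± 0.09, SD, n = 4) and its lowest at ZT20 (6.47 ± 0.11, SD, n = 4), C1qb at ZT8 (7.14 ± 0.11, SD, n = 4) and ZT4 (6.97 ± 0.09, SD, n = 4), and C1qc at ZT8 (7.39 ± 0.06, SD, n = 4) and ZT16 (7.23 ± 0.12, SD, n = 4). ZT4 was therefore the highest time point of C1qa and the lowest of C1qb. C1qa came nearest to a rhythm of the 9 genes, with a peak-to-trough ratio of 1.11 and the crest of its curve at ZT 4.52, with a standard error of 1.53 h (adjusted p = 0.576 in limma). C1qb and C1qc had folds of 1.04 and 1.06 (adjusted p = 0.899 and 0.845). For C1qb, 3 of the mice at ZT4 gave 6.91, 6.92 and 6.94 and the fourth 7.11. When its time points were ordered by mean, ZT4 lay 0.12 below the next one, ZT20, which was more than the larger SD of these groups, 0.09. Among all such neighbours over the 9 genes, no other pair was set apart by more than the larger SD.

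The second comparison set the early light (ZT0 and ZT4) against the early dark (ZT12 and ZT16), the phases in which mice begin to rest and begin to be active. It called 0 of the 9 microglia genes at an adjusted p under 0.05, where 0.0342% of transcripts were called. Cx3cr1 and Aif1 had an unadjusted p under 0.05 from limma, 2 of 9, where 10.2% of transcripts did. Without ZT0 replicate 4, 1 of the 9 had, and the transcripts called rose from 8 to 13. The difference was above 0 for 6 of the 9 genes, with a median of 0.04, and over all transcripts 47.5% were above 0 with a median of −0.01.

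Cx3cr1 averaged 7.44 in the early light and 7.29 in the early dark, a difference of 0.14 on the log2 scale (standard error 0.07, 95% interval 0.01 to 0.28, adjusted p = 0.457 from limma). Of the 8 arrays from the early light, 6 exceeded the highest of the 8 from the early dark, and the other 2 overlapped with them. Aif1 averaged 6.01 and 5.87, a difference of 0.14 (standard error 0.06, 95% interval 0.01 to 0.27, adjusted p = 0.457), with 5 of 8 early light arrays above all early dark ones. Without ZT0 replicate 3, which held the highest Aif1 value, its difference was 0.09. C1qa differed by 0.10 (standard error 0.05, 95% interval −0.01 to 0.21, adjusted p = 0.525), with 4 of 8 early light arrays above all early dark ones.

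P2ry12 had the lowest difference, −0.15 (standard error 0.10, 95% interval −0.35 to 0.05, adjusted p = 0.615 from limma), with means of 6.19 in the early light and 6.34 in the early dark. Without ZT0 replicate 4 the difference was −0.06. The differences of Csf1r (0.04), Tmem119 (0.04), Trem2 (0.05), C1qb (−0.05) and C1qc (−0.01) were all smaller than their SDs within time points. With single arrays left out Tmem119 ran from 0.01 (without ZT16 replicate 2) to 0.07 (without ZT16 replicate 4), and was 0.02 without ZT0 replicate 3. Trem2 ran from 0.03 (without ZT0 replicate 4, and also without ZT4 replicate 1) to 0.09 (without ZT0 replicate 3). Csf1r was 0.03 without ZT12 replicate 4, and C1qc was 0.03 without ZT0 replicate 4. The widest bound of the 95% intervals of the 9 genes was 0.35 in size, at the lower end for P2ry12.

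**Figure D2:**
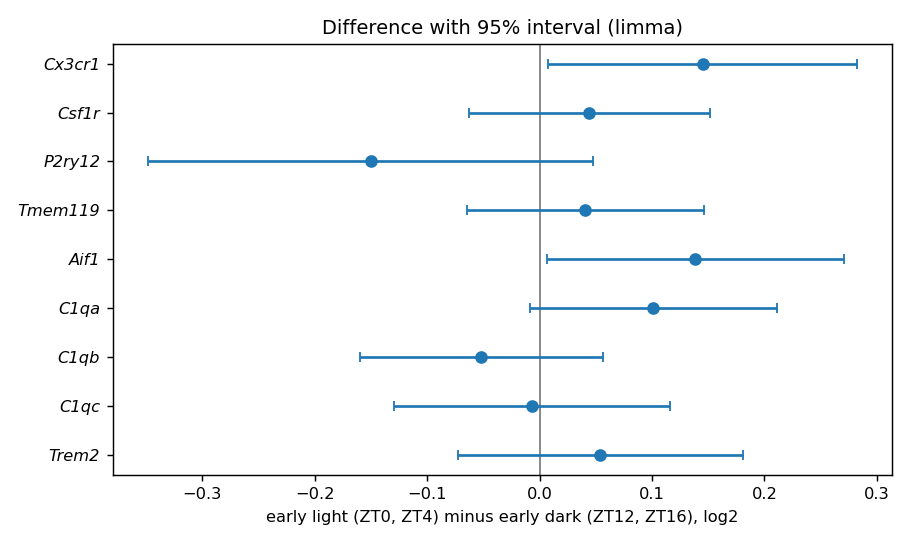
Difference between the early light and the early dark for each microglia gene. The x axis is the difference of group means on the log2 scale (8 arrays against 8), points are limma's estimates and bars their 95% intervals. Only the bars of Cx3cr1 and Aif1 leave out 0, before adjustment over all transcripts, and P2ry12 has the widest bar, down to −0.35.

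A further contrast set ZT4 and ZT8 against ZT16 and ZT20. The arrays of ZT4 and ZT16 enter both contrasts, so values are only set side by side. The differences were 0.12 for Cx3cr1 (adjusted p = 0.680 from limma), 0.12 for C1qa (adjusted p = 0.609), 0.06 for Aif1 and −0.05 for P2ry12. Tmem119 differed by −0.05 here and by 0.04 between early light and early dark, and C1qc by 0.06 and −0.01. The contrast called 0 of the 9 microglia genes at an adjusted p under 0.05, where 0% of transcripts were called, and 1 had an unadjusted p under 0.05, where 7.69% of transcripts did.

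Whether the microglia genes vary together from mouse to mouse was tested for the 36 pairs over the 24 mice. The correlations lay around 0, with a median Pearson r of 0.03, 20 pairs above 0 and 16 below, and a range from −0.43 to 0.51. No pair passed at an adjusted p under 0.05 over the 36 pairs (100000 permutations, two-sided), and 3 had an unadjusted permutation p under 0.05. Between the 9 genes and all other transcripts the median r was −0.01. All points share arrays and their normalization. On deviations from the time point means 7 of the 36 pairs had an unadjusted permutation p under 0.05, and no pair passed at an adjusted p under 0.05. The permutations shuffled deviations freely over the mice and did not allow for the removed means. Permutation p-values of deviations, here and below, are therefore too small, and counts from them can be too high. Without ZT0 replicate 4 the unadjusted counts were 1 for the values and 4 for the deviations. How often pairs with other transcripts reach that threshold was not counted, so none of these counts is a result about microglia genes.

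The strongest pair was Tmem119 and C1qb, with r = 0.51 (permutation p = 0.00987, adjusted p = 0.355) and Spearman's rho = 0.52 (permutation p = 0.0101, adjusted p = 0.262). Without the 2 arrays farthest from the median of Tmem119 r was 0.43, and on deviations from the time point means it was 0.51. Among all transcripts, 0.303% had an r with Tmem119 at least as high as that of C1qb. P2ry12 and C1qc had r = 0.46 (permutation p = 0.0272, adjusted p = 0.474) and rho = 0.26 (permutation p = 0.214, adjusted p = 0.769). That relation rested on few arrays, since r was 0.22 without the 2 farthest and 0.18 without ZT0 replicate 4, which had the lowest value of both genes. On deviations from the time point means it was 0.58 (permutation p = 0.00280, adjusted p = 0.101, both too small as said above). Without ZT0 replicate 4 these deviations had r = 0.36 (permutation p = 0.0868, adjusted p = 0.437). Among all transcripts, 9.53% had an r with P2ry12 at least as high as that of C1qc. For P2ry12 and Aif1 the sign was negative, with r = −0.43 (permutation p = 0.0398, adjusted p = 0.474) and rho = −0.50 (permutation p = 0.0145, adjusted p = 0.262), with r = −0.27 without the 2 farthest arrays. Their deviations from the time point means had r = −0.32 (permutation p = 0.130, adjusted p = 0.360). Among all transcripts, 86.5% had an r with P2ry12 at least as high as that of Aif1.

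The C1q chains, which are built into 1 protein, were not tightly tied in measured level. C1qa, with a mean of 6.54, lay below the 95th percentile of the olfactory receptor genes, 7.06, and C1qb, at 7.09, just above it. A low r of such signals does not show that the RNAs vary apart. C1qb and C1qc had r = 0.37 (permutation p = 0.0737, adjusted p = 0.474, and rho = 0.44 with permutation p = 0.0312 and adjusted p = 0.375), and r = 0.50 on deviations from the time point means. Without the 2 arrays farthest from the median of C1qb r was 0.49. C1qa had r = −0.16 with C1qb (permutation p = 0.446, adjusted p = 0.869, and rho = −0.06 with permutation p = 0.793 and adjusted p = 0.949) and 0.04 with C1qc (permutation p = 0.847, adjusted p = 0.942, and rho = 0.11 with permutation p = 0.605 and adjusted p = 0.846). Without the 2 arrays farthest from the median of C1qa these were −0.15 and 0.01. Without ZT0 replicate 4 the r of C1qa with C1qc was 0.006. For Cx3cr1 and Aif1, the genes with the largest differences among those higher in the early light, r was 0.38 (permutation p = 0.0696, adjusted p = 0.474, and rho = 0.34 with permutation p = 0.105 and adjusted p = 0.741). It was 0.46 without the 2 arrays farthest from the median of Cx3cr1 and 0.25 on deviations from the time point means.

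**Figure D3:**
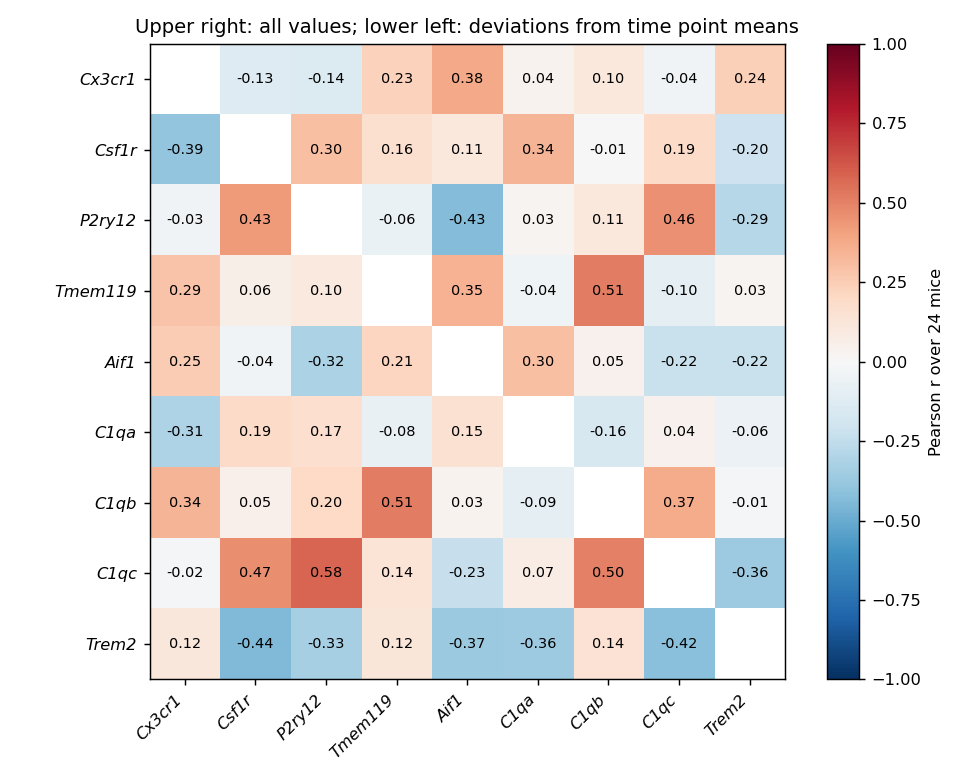
Pearson r of each pair of microglia genes over the 24 mice, on a colour scale from −1 (blue) to 1 (red). The upper right holds r of the values and the lower left r of the deviations from the time point means. Positive and negative values are mixed, Tmem119 and C1qb reach 0.51 in both parts, and P2ry12 and C1qc go from 0.46 to 0.58 once the time point means are removed (0.36 without ZT0 replicate 4).

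**Figure D4:**
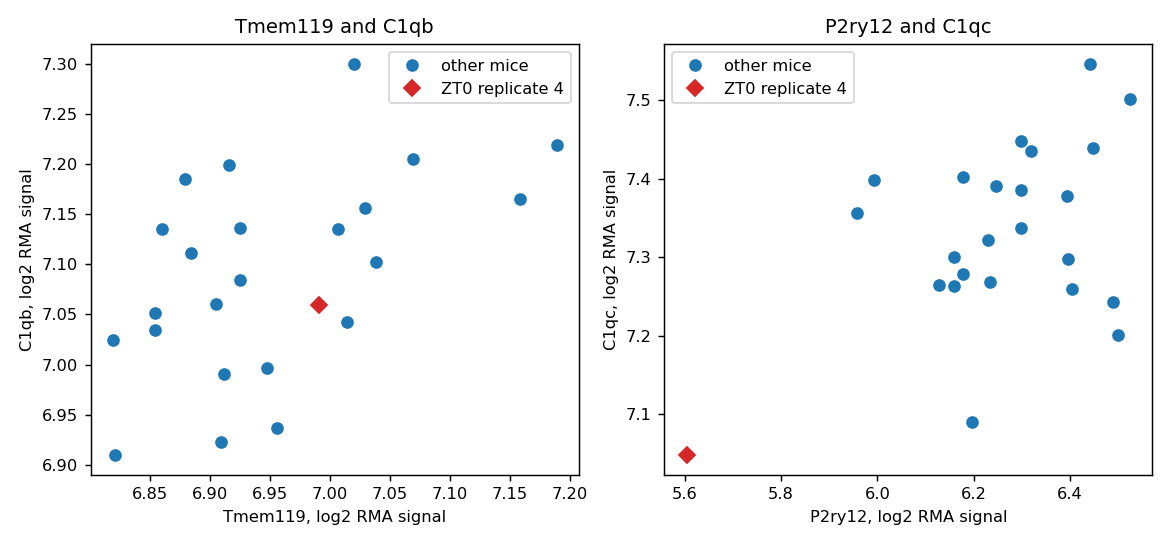
Levels of Tmem119 against C1qb (left) and of P2ry12 against C1qc (right), each axis the log2 RMA signal and each point 1 mouse, with ZT0 replicate 4 as a red diamond. The left points spread along a loose upward band (r = 0.51), and the right panel has the diamond alone at the lower left corner, without which r is 0.18.

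The transcripts with the course most like that of the 9 genes were found by r with the mean of the members over the 24 arrays, each member centred on its own mean and divided by its SD. They were Dubr (r = 0.72), Hmcn1 (0.68), Kcna2 (0.68), Tomm40l (0.68), Prdx1 (0.68), Atp6ap2 (0.68), Ranbp3l (0.67), Uck2 (0.66), Zfp974 (0.65) and Ikbip (0.65), and none of them is in a list of cell type markers used here. These are the highest of 23401 values and carry no test. Over all transcripts r with that mean had a median of −0.04, with 5th and 95th percentiles of −0.42 and 0.41. Of 23 other microglia genes, the lysosomal protease Ctss had the highest r (0.57) and Laptm5, a lysosomal membrane protein of blood-derived cells, the lowest (−0.49), with a median of 0.08. Among the members themselves, r with the mean of the other 8 was highest for Tmem119 (0.35) and C1qb (0.31) and lowest for Trem2 (−0.24).

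Genes that work beside the 9, or mark the same cells, were listed by function. Of 25 other microglia genes listed, 23 were measured, and 0 were called at an adjusted p under 0.05 in the rhythm fit or in the contrast of early light and early dark. At an unadjusted p under 0.05 from limma 1 was rhythmic, Spi1, which encodes PU.1 (fold 1.14, adjusted p = 0.538). Over all transcripts 8.91% had an unadjusted p under 0.05 in the rhythm fit and 10.2% in the contrast of early light and early dark. Counts at that threshold, here and in the lists below, are to be read beside these shares. In the contrast 13 of the 23 were above 0, with a median of 0.007. At an unadjusted p under 0.05 from limma 1 was higher and 2 were lower. The lower ones were Mertk, the receptor for the uptake of dying cells (−0.20, standard error 0.07, adjusted p = 0.320), and Cd53, a tetraspanin of leukocytes (−0.19, standard error 0.09, adjusted p = 0.459). Without ZT0 replicate 4 the difference of Cd53 was −0.12. Of the ligands, adaptors and kinases that work with the receptors, 9 of 9 were measured, with 0 at an unadjusted p under 0.05 from limma in either test. They include Csf1, the ligand of CSF1R (−0.09, adjusted p = 0.680), and Apoe, a lipid carrier bound by TREM2 (0.04, adjusted p = 0.893).

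The complement genes that follow C1q had 16 of 19 members measured and 0 called in either test from limma. At an unadjusted p under 0.05 there were 3 in the rhythm fit and 1 in the contrast, where 8.91% and 10.2% of transcripts reached it. The 1 in the contrast was C4b, cleaved by the C1 complex, at 0.19 in the early light (standard error 0.08, adjusted p = 0.400). Its near-identical copy C4a can share probes, so its level is uncertain. C1s2 and C2 had fitted folds of 1.22 and 1.12 (adjusted p = 0.464 and 0.530), and C1s2 has a close copy, C1s1, too. Among 7 of 10 purinergic genes measured, 0 were called from limma, 1 had an unadjusted p under 0.05 in the rhythm fit and 1 was lower at that threshold in the contrast. It was P2ry1, another ADP receptor, which differed by −0.19 (standard error 0.07, adjusted p = 0.311), in the same direction as P2ry12. Of the 7 purinergic genes, 6 were above 0 in the contrast, with a median of 0.04.

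Genes that rise in reactive microglia, 15 of 16 measured, had 0 calls from limma. In the contrast 5 of the 15 were above 0, with a median of −0.01. At an unadjusted p under 0.05 from limma there was 1 gene in each test. That was Ctsb, a lysosomal protease, at 0.14 in the early light (standard error 0.06, adjusted p = 0.395). After further quantile normalization its difference was 0.05 (adjusted p = 0.739), and its fitted range of 0.18 became 0.06. For cytokines and chemokines 16 of 16 were measured and 0 were called from limma. In the rhythm fit 2 had an unadjusted p under 0.05 (8.91% of transcripts did), and 1 was higher and 1 lower at that threshold in the contrast (10.2%). They were the monocyte chemokines Ccl2, at 0.32 (standard error 0.10, adjusted p = 0.263), and Ccl12, at −0.27 (standard error 0.08, adjusted p = 0.263), with opposite signs and with fitted folds of 1.29 and 1.25. Their mean levels, 6.43 and 5.10, were below the 95th percentile of the olfactory receptor genes.

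Macrophages at the borders of the brain express some of the same genes as microglia. Of 10 such genes, all measured, 0 were called from limma, 1 had an unadjusted p under 0.05 in the rhythm fit, and 2 were lower in the early light at that threshold. These were Cbr2 (−0.20, adjusted p = 0.338) and Mrc1 (−0.12, adjusted p = 0.465), and 4 of the 10 were above 0, with a median of −0.01. Summed as a mean level, the border macrophage genes ranged from 5.81 to 6.07 over the early light arrays and from 5.93 to 6.06 over the early dark arrays, and 1 of the 10 had a mean above the 95th percentile of the olfactory receptors. For 9 of 10 blood leukocyte genes these ranges were 5.55 to 5.74 and 5.62 to 5.74, with 0 above that percentile. The mean level of the 9 microglia genes ranged from 6.82 to 7.02 and from 6.84 to 6.95. In the lists of astrocytes, oligodendrocytes and their precursors, endothelial cells, red blood cells, neurons and dopamine neurons, 0 genes were called from limma, and from 0 to 2 per list had an unadjusted p under 0.05 in the contrast. In the rhythm fit 4 of 9 oligodendrocyte genes and 3 of 7 precursor genes had an unadjusted p under 0.05, where 8.91% of transcripts did, and 0 or 1 in each of the other lists. Opalin, an oligodendrocyte membrane protein, had the smallest p of these (fold 1.40, adjusted p = 0.113). The part of any of these cells in the microglia gene values was not tested.

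**Figure D5:**
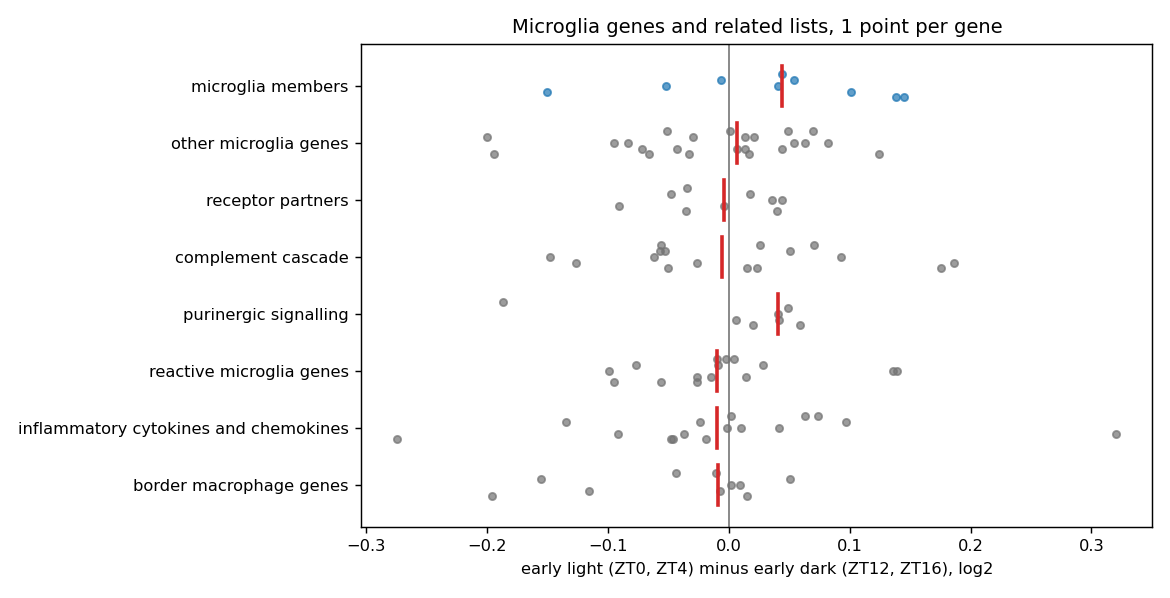
Difference between early light and early dark (log2, x axis) for the 9 microglia genes (blue) and the genes of 7 related lists (grey), 1 point per gene, with the median of each list as a red bar. Medians lie between −0.01 and 0.04, and the farthest points are Ccl2 at 0.32 and Ccl12 at −0.27.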

How the data were processed

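The authors deposited 1 table of log2 signals for 24 Affymetrix Mouse Gene 1.0 ST arrays, which hold biotin-labelled cDNA of total RNA from VTA punches. Per the labels, the values were made with RMA in R 2.13.1. RMA subtracts background, equalizes the distributions of the arrays and summarizes the probes of a probe set, so that changes shared by most transcripts are removed and small signals are drawn together. The files used here carry no probe-level background or scan data, so no batch could be examined, and the number of arrays limits the precision. The labels do not say that mice were handled separately beyond 1 array each, so p-values measure the spread between these arrays. The number of columns without a sample was 0.

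Of 35556 probe sets, the 23410 with a gene in the annotation were tested as transcripts, 21789 of them with 1 gene and 1621 with several. For 21698 of those with 1 gene, the gene was found in the GRCm38.p6 gene table and its name there was used. Rhythms were fitted on the log2 values with the cosine and sine of a 24-h period in limma 3.58.1 under R 4.3.3, with the moderated F-test, in place of the CircWave program of the study. Early light and early dark were compared with limma after each of the 6 time points was given a mean of its own. P-values were adjusted across the whole set of transcripts by the Benjamini-Hochberg method, and a call needs an adjusted p under 0.05. Correlations used permutation tests in Python 3.11.15 with numpy 2.4.6 and SciPy 1.17.1, and plots matplotlib 3.10.9. All fits were tested on simulated data.

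The members, the lists and the tests were chosen with earlier results of these data known. Named genes are the 9 members, up to 3 genes per list with the smallest p, and the 10 transcripts most like the mean of the members. Ctss and Laptm5 were named after their values were seen. Alternatives were an unmoderated test, a robust and trended eBayes step, array weights, a block for the replicate number, the full table with probe sets of no gene, only transcripts above the median level, further quantile normalization, centred array medians, time points as groups, an added 12-h term, linear values over the mean, other phase contrasts, and the removal of single arrays and of whole time points.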

Additional observations from a re-analysis of the deposited data

Results flagged for a closer look

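In 3 of the 54 groups of 4 mice (9 genes at 6 time points), 1 mouse lay far from the other 3 by Dixon's test. Chance flags about 1 in 20 groups. Aif1 was 5.73 in ZT12 replicate 1, and 5.90 to 5.91 in the other mice of that time point. C1qb was 7.11 in ZT4 replicate 4, and 6.91 to 6.94 in the others. Trem2 was 7.57 in ZT20 replicate 4, and 7.29 to 7.32 in the others. None of these arrays is ZT0 replicate 4, the array that stood apart over all transcripts.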

How the results depend on the processing

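Under every alternative run, 0 of the 9 microglia genes were called in the rhythm fit, in the contrast of early light and early dark and among the 36 pairs, also with each array left out in turn (0 to 0 for each). The lowest adjusted p of a member was 0.439 in the rhythm fit and 0.139 in the contrast, both from limma. For the pairs it was 0.0565, for P2ry12 and Aif1 without ZT0 replicate 3. Leaving out arrays other than ZT0 replicate 4 from the pairs, and leaving it out of the deviations, was chosen after seeing the data. The counts at an unadjusted p under 0.05 were less steady. With each array left out they ran from 0 to 2 in the rhythm fit, reaching 2 without ZT16 replicate 1, and from 0 to 2 in the contrast, falling to 0 without ZT0 replicate 3 or ZT16 replicate 3. They were 2 in the rhythm fit with array weights, and 0 in the contrast without all mice of ZT12 or of ZT16. With the replicate number as a block, 0 members were called in either test, and 10 transcripts in the rhythm fit and 14 in the contrast. Correlations of deviations between same-numbered arrays ran from −0.30 to 0.58, and 6 of 24 arrays correlated best with their own number. The highest r was 0.58 among arrays numbered 4, and 0.26, 0.19 and 0.14 among those numbered 1, 2 and 3. Whether same-numbered arrays were handled together was not tested.

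Signs turned only near 0. C1qb was 0.0290 in the contrast without all mice of ZT4. Tmem119 was −0.0543 for ZT4 and ZT8 against ZT16 and ZT20 and −0.0463 without all mice of ZT0. C1qc was 0.0623 for ZT4 and ZT8 against ZT16 and ZT20, 0.00589 for the whole light phase against the whole dark phase, 0.0195 without all mice of ZT0 and 0.0674 without all mice of ZT12. With single arrays left out C1qc ran from −0.0302 to 0.0307, and was above 0 without ZT0 replicate 4, ZT4 replicate 1, ZT12 replicates 1 or 3, or ZT16 replicate 3.

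Over all transcripts the rhythm count of 7 was 17 after further quantile normalization, 4 over all probe sets, 1 with time points as groups, 3 with a 12-h term, 4 without ZT0 replicate 1, 12 without ZT8 replicate 3, and 4, 2, 0 and 2 without all mice of ZT0, ZT4, ZT8 and ZT12. The contrast count of 8 was 45 with array weights, 20 after further quantile normalization, 14 above the median level, 3 without eBayes, 2 over all probe sets and 0 for ZT4 and ZT8 against ZT16 and ZT20. With single arrays left out it ran from 2 to 134, the latter without ZT0 replicate 2. The cause was not tested. P2ry12, Aif1 and C1qa lay below the median level and dropped out of that filter. A mean over several probe sets gives the same values, since each member has 1.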
